A study of Rattus norvegicus with 14 samples.

Results

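The 28 genes described here carry out cholesterol synthesis, its control by the sterol-sensing SREBP system, and the release of cholesterol from cells. They were chosen by name for their role, and all 28 averaged 10 or more normalized counts in both cell types, among 15314 genes tested in neurons (18239 listed) and 15380 in astrocytes (31791 listed). Of these, 20 encode enzymes of synthesis, 6 belong to SREBP control and sterol transport (Insig1, Insig2, Scap, Srebf1, Srebf2 and Stard4), and 2 encode efflux transporters (Abca1 and Abcg1). The RNA came from primary hippocampal cultures of E18 Sprague Dawley rats, shared by all groups. All groups had first been moved to AM medium, an aging model in which neurons have a reduced B27 supplement (0.2%) and astrocytes are kept in charcoal-stripped serum (10%). Neurons on day 10 in culture had 4 h of AM medium and then 16 h of vehicle (AM-Veh, 0.001% ethanol, 4 libraries) or of 100 nM allopregnanolone (AM-Allo, 4 libraries). Astrocytes, shaken free of other cells from mixed glia, had 24 h of AM medium and then 24 h of vehicle (3 libraries) or of 100 nM allopregnanolone (3 libraries). Allopregnanolone (Allo) is a steroid made in the brain from progesterone, itself made from cholesterol, and it acts on GABA-A receptors. No source says whether libraries of a group came from separate cultures or animals, so p-values measure only the spread between libraries, which may be technical.

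Brain cells make nearly all of their own cholesterol, because lipoproteins of the blood do not cross the blood-brain barrier, and astrocytes pass part of what they make to neurons. Acetyl-CoA is built up through mevalonate, farnesyl diphosphate and squalene to lanosterol, which a chain of enzymes then trims to cholesterol. When membranes of the endoplasmic reticulum run short of sterol, Scap carries the precursors of SREBP-1 and SREBP-2 (genes Srebf1 and Srebf2) to the Golgi, where the cut-off domains become transcription factors for the enzymes of synthesis. Insig1 and Insig2 hold Scap back when sterol is plentiful, and Insig1 is itself a target of the factors. Abca1 and Abcg1, which load cholesterol onto lipoproteins, answer instead to the LXR receptors, which sense oxysterols and also drive Srebf1.

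Labels and depth were checked on the libraries first. Depth, read from the spacing of each library's smallest values, was about 19400000 to 25300000 reads on genes in neurons and 22300000 to 27900000 in astrocytes. The neuron cultures were not neurons alone. The summed level of 7 astrocyte markers was 8875 to 11445 CPM (normalized counts scaled to a common table total) in them and 9815 to 10439 CPM in the astrocyte cultures. The 5 neuron markers analysed summed to 2034 to 2459 CPM in neuron cultures and to 1036 to 1101 CPM in astrocyte cultures. In the latter the sum was mostly Stmn2 (913 CPM in AM-Veh, against 427 CPM in neuron cultures) and Map2 (162 against 1116 CPM), while Tubb3 was at 1.35 against 407 CPM, Syt1 at 0.996 against 185 CPM and Rbfox3 at 0.0193 against 21.2 CPM. Oligodendrocyte-lineage markers (7 genes) were at 1610 to 1940 CPM against 214 to 226 CPM, and mesenchymal markers (5 genes) at 10.1 to 100.03 CPM against 2379 to 2843 CPM. The mesenchymal sum of AM-Veh astrocyte cultures was carried by the collagens Col1a1 (984 CPM), Col1a2 (1247 CPM) and Col3a1 (370 CPM). Dcn (0.245 CPM, against 8.28 in AM-Veh neuron cultures) and Lum (0.340 against 0.540 CPM) were lower there. Microglia markers were near 0 in neuron cultures (0.251 to 1.33 CPM) and at 39.0 to 51.6 CPM in astrocyte cultures. In such mixed cultures a change in the number of cells of a type and a change in RNA per cell cannot be told apart.

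Sequence that the choice of members did not use was read from their promoters, as a description with no test. RefSeq windows from 250 bases before to 50 bases after the start of transcription (GRCr8) were at hand for 23 of the 28 genes, as 24 windows, because Srebf1 has 2. No window was used for Abcg1, Fdft1, Pmvk, Sqle and Stard4. The letters CCAAT, the box of the factor NF-Y that works beside SREBPs at many sterol genes, stood on either strand in 19 of 24 windows (79.2%, 18 genes), against 37.5% of all 33469 rat windows and 36.8% of the 12259 windows of genes tested here. The E-box CACGTG stood in 4 of the 24 (Abca1, Insig1, Sc5d and Scap), or 16.7% against 6.42% of all windows and 8.83% of those of genes tested here. The sterol element core TCACNCCAC stood in none of the 24 and in 1.12% of all windows and 1.05% of those of genes tested. At a rate that low, none in 24 windows cannot set the members apart from other genes. Other spellings of the element were not searched, so its lack here does not show that these promoters have no sterol element. No motif of the 3 contains another, and a match is a run of letters, not a shown binding site.

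The stretches below come from Mvk and Nsdhl, the genes with the most CCAAT boxes, and from Hmgcs1, Insig1 and both starts of Srebf1, the genes whose values lead the results. Each is a run of 120 bases that holds as many boxes as any in its window, on the strand of the gene, 5′ to 3′, with CCAAT or its reverse complement ATTGG in capitals.
Hmgcs1, chr2:53382083-53382202, plus strand, 221 to 102 bases before the start: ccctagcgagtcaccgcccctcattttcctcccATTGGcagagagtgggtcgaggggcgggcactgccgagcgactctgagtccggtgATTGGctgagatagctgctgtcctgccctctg
Insig1, chr4:8057900-8058019, minus strand, 250 to 131 bases before the start: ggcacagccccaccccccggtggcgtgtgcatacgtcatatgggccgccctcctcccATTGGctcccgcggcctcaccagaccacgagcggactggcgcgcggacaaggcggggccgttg
Mvk, chr12:47819513-47819632, minus strand, 129 to 10 bases before the start: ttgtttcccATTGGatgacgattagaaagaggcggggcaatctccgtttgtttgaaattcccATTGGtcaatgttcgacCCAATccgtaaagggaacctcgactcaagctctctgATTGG
Nsdhl, chrX:155817180-155817299, plus strand, 180 to 61 bases before the start: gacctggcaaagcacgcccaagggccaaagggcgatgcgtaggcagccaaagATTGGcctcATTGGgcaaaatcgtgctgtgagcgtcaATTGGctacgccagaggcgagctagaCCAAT
Srebf1, downstream start, chr10:45519071-45519190, minus strand, 180 to 61 bases before the start: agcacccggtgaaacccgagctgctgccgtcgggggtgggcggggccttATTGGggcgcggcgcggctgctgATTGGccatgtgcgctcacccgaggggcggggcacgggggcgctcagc
Srebf1, upstream start, chr10:45529274-45529393, minus strand, 229 to 110 bases before the start: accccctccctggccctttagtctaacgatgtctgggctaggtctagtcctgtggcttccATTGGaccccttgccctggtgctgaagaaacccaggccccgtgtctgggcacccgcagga
The whole windows of Mvk and Nsdhl held 5 CCAAT boxes each, of which 4 are in the stretch shown, and that of Hmgcs1 held 2. The windows of Abca1, Acat2, Cyp51, Dhcr7 and Scap held none.

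In neurons, the enzymes of synthesis leaned to higher levels with Allo by a few percent, and no member passed adjustment over all genes. Of the 20 synthesis genes, 16 had a higher mean in AM-Allo, as had 7530 of all 15314 genes. Synthesis genes tended to move together over the libraries, so 16 of 20 is not a count of separate results. Their median log2 fold change was 0.05, against −0.0015 over all genes tested. With 1 library left out this median ran from 0.02 (without AM-Allo 1-1) to 0.07 (without AM-Veh 1-1). Of the 6 control genes 5 were higher (median 0.06), and both efflux genes were lower (median −0.04). At an unadjusted p under 0.05, the threshold that the study used, 5 of 28 members were higher and 1 was lower in the limma fit, while the rates over all genes were 3.21% higher and 2.48% lower. After Benjamini-Hochberg adjustment 0 of 28 members passed, against 4 of all genes (0.0261%). In 1 member, Dhcr7, every AM-Allo library lay above every AM-Veh library (2.06% of all genes), and in 0 members below (1.89%).

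**Figure D1:**
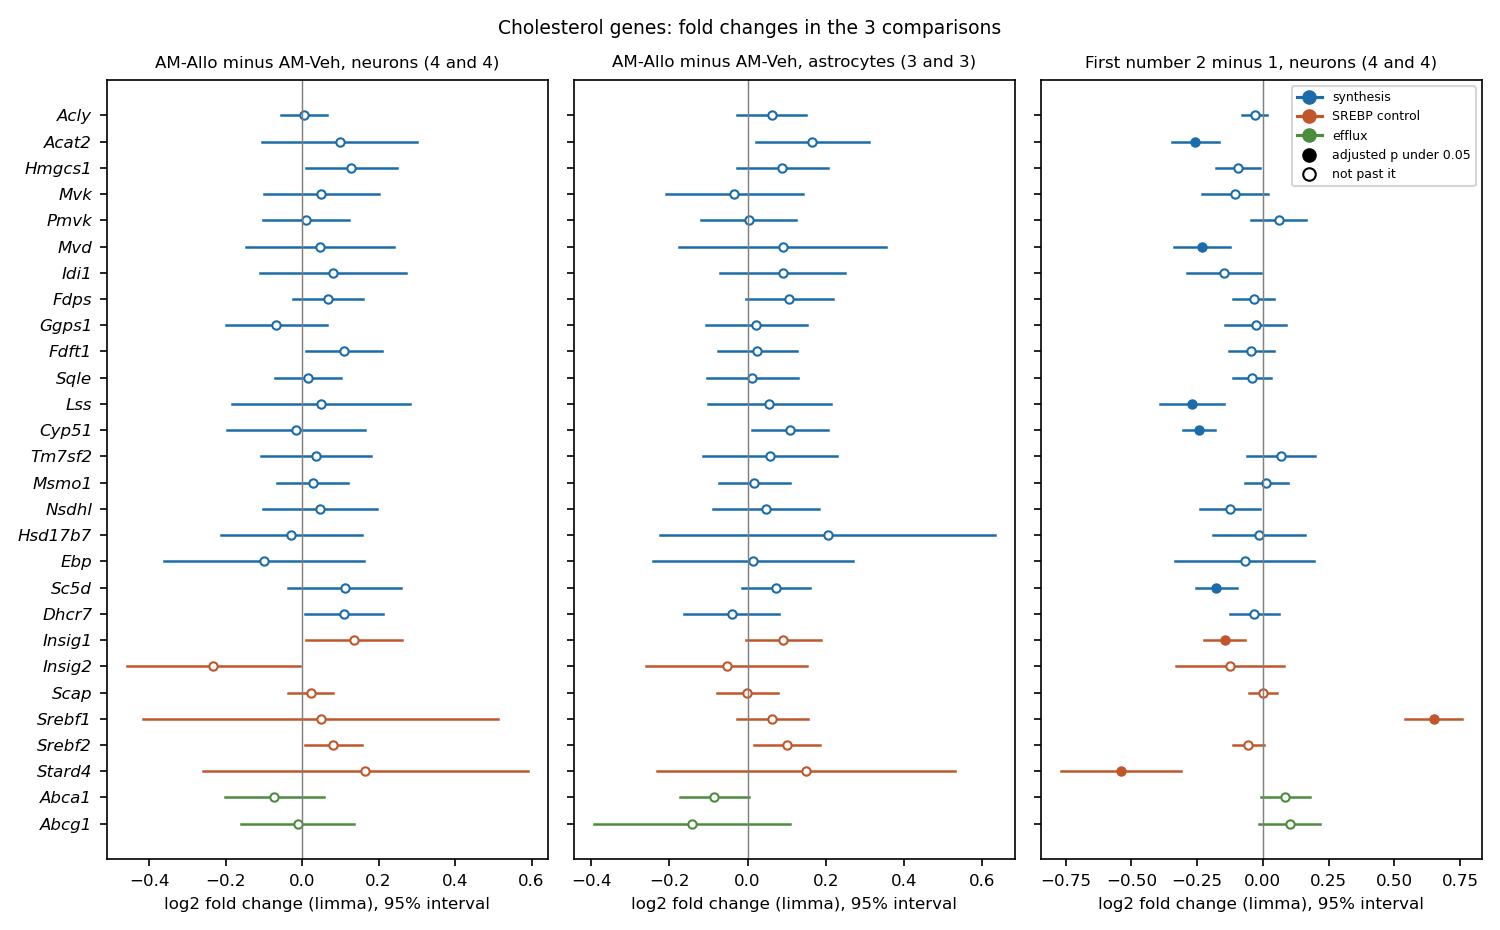
Log2 fold changes of the 28 cholesterol genes (points) with 95% intervals from limma (lines), for AM-Allo minus AM-Veh in neurons (left), in astrocytes (middle), and for libraries whose number starts with 2 minus those starting with 1 in neurons (right, on a wider scale). Filled points passed an adjusted p of 0.05; none did for Allo, and 8 did between the numbers, of which Srebf1 was the 1 higher gene.

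Among the early enzymes, Hmgcs1, which makes HMG-CoA for the mevalonate pathway, had 6569, 5974, 5801 and 5317 normalized counts in AM-Veh libraries 1-1, 1-2, 2-1 and 2-2, and 6470, 6503, 6415 and 6414 in AM-Allo. The 4 AM-Allo values lay close together, inside the upper part of a wide AM-Veh range, and AM-Veh 1-1 was the highest of all 8. Its log2 fold change was 0.13 ± 0.05 (SE), with an unadjusted limma p of 0.0358 and an adjusted p of 0.806. The two-sided exact permutation p was 0.143.

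Fdft1, the squalene synthase that commits the pathway to sterols, had 1521, 1361, 1369 and 1327 normalized counts in AM-Veh and 1499, 1502, 1518 and 1492 in AM-Allo. As with Hmgcs1, AM-Veh 1-1 alone reached the AM-Allo range, from just above it. The log2 fold change was 0.11 ± 0.04 (SE, limma unadjusted p = 0.0332, adjusted p = 0.806).

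Dhcr7, which closes the pathway by making cholesterol from 7-dehydrocholesterol, had 1138, 1109, 1080 and 1010 normalized counts in AM-Veh and 1151, 1155, 1226 and 1148 in AM-Allo. It was the one member without overlap between the groups, with a narrow gap between AM-Veh 1-1 and AM-Allo 2-2. The log2 fold change was 0.11 ± 0.05 (SE, limma unadjusted p = 0.0358, adjusted p = 0.806), and the exact permutation p of 0.0286 is the smallest that 4 against 4 libraries can give.

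The other 17 synthesis genes did not pass the unadjusted threshold. Their log2 fold changes ran from −0.10 in Ebp, the sterol isomerase, to 0.11 in Sc5d, the lathosterol oxidase that acts just before Dhcr7. Acly, which supplies cytosolic acetyl-CoA, was nearly level, with 6899 to 7045 normalized counts in AM-Veh and 6842 to 7143 in AM-Allo (log2 fold change 0.01 ± 0.03, SE). Sqle, the squalene epoxidase and a rate-limiting step of the later pathway, was at 2672 to 2897 and 2644 to 2872 (0.02 ± 0.04). The upper bounds of their 95% intervals were 0.07 and 0.10 on the log2 scale.

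Within SREBP control, Insig1 and Srebf2 were higher and Insig2 lower at an unadjusted p under 0.05. Insig1 had 1015, 977, 903 and 891 normalized counts in AM-Veh and 1092, 1087, 982 and 996 in AM-Allo. Each AM-Allo library was above the AM-Veh library of the same number, while the groups as wholes overlapped (log2 fold change 0.14 ± 0.06, SE, limma unadjusted p = 0.0373, adjusted p = 0.810). Srebf2, the SREBP most tied to cholesterol synthesis, had 3054, 2979, 2891 and 2862.5 in AM-Veh and 3098, 3229, 3106 and 3037 in AM-Allo (0.08 ± 0.03, unadjusted p = 0.0340, adjusted p = 0.806). Its groups met at 1 point only, AM-Allo 2-2 falling just under AM-Veh 1-1.

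Insig2, the second Scap retention protein, went the other way, with 208, 178, 201 and 185 normalized counts in AM-Veh and 173, 186, 141 and 160 in AM-Allo. Its log2 fold change was −0.23 ± 0.10 (SE, limma unadjusted p = 0.0457, adjusted p = 0.861), the largest fall among the members. Scap itself was close to level (0.02 ± 0.03). Srebf1 (0.05 ± 0.21) and Stard4 (0.17 ± 0.19), a carrier of cholesterol between membranes, had wide errors, and their libraries lay apart by the first part of the number. The efflux gene Abca1 had 15621.5, 16526, 16624.5 and 18833.5 normalized counts in AM-Veh and 15586, 16155, 15171 and 17319 in AM-Allo, each below the AM-Veh library of the same number (−0.07 ± 0.06). Abcg1 was at −0.01 ± 0.07, and neither efflux gene passed the unadjusted threshold.

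Neuron libraries that share a number deviated together. When that was taken into the fit, more members passed the unadjusted threshold, and so did more of all genes. Without a block, 5 members were higher (3.21% of all genes) and 1 was lower (2.48%). With a block by the first part of the number, 7 members were higher (882 of all genes, 5.76%) and 1 was lower (802, 5.24%) at an unadjusted p under 0.05, and again 0 of 28 passed adjustment (104 of all genes, 0.679%). Acat2, the cytosolic thiolase that opens the pathway (unadjusted p = 0.0324), and Sc5d (unadjusted p = 0.00855) joined the earlier members in this limma fit. The unadjusted p fell to 0.00208 for Insig1, whose adjusted p of 0.129 was the lowest of the members, and to 0.00461 for Hmgcs1. With a block by the whole number, 9 members passed the unadjusted threshold (10.7% of all genes), the added one being Abca1, which was lower (limma unadjusted p = 0.0155, adjusted p = 0.329).

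The fold change with Allo was also read within each first number, from only 2 AM-Veh and 2 AM-Allo libraries at a time. For Hmgcs1 the log2 fold change was 0.05 in libraries numbered 1 and 0.21 in those numbered 2, and within the latter the limma adjusted p was 0.0224 (1 of 28 members, against 1.74% of all genes). The difference of 0.16 had an unadjusted p of 0.0273 and an adjusted p of 0.433 in the interaction term, which 12 of all genes passed after adjustment. For Insig1 the values were 0.13 and 0.14, close to each other. Insig2 was at −0.10 and −0.36, and Dhcr7 at 0.04 and 0.18, and Hmgcs1 was the 1 member of 28 whose difference passed the unadjusted threshold, against 9.53% of all genes.

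The unadjusted counts rested on single libraries. With 1 neuron library left out at a time, 0 to 6 members passed, while 678 to 966 of all genes did: 0 without AM-Veh 2-1 or without AM-Veh 2-2, 1 each when AM-Allo 1-1 or 2-1 was dropped, and 2 when AM-Allo 1-2 was. Dhcr7 lasted in 5 of 8 such fits, Insig1 in 4, Srebf2 in 3, Insig2 in 2, and Hmgcs1 and Fdft1 in 1. The direction of all 6 held in all 8 fits.

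Markers of cell types were read for the same comparison. Of 5 neuron markers, 3 had a higher mean in AM-Allo and 2 a lower one. Tubb3, a neuronal tubulin, was higher by 0.21 ± 0.05 on the log2 scale (SE, limma unadjusted p = 0.00271, adjusted p = 0.539) and Map2 by 0.10 ± 0.03 (unadjusted p = 0.0113, adjusted p = 0.677), while Rbfox3 (−0.07 ± 0.08) and Syt1 (−0.08 ± 0.10) did not pass. The summed neuron markers were 2034 to 2275 CPM in AM-Veh and 2205 to 2459 CPM in AM-Allo, and astrocyte markers 8943 to 11445 and 8875 to 11098 CPM. All 7 oligodendrocyte-lineage markers had a higher mean in AM-Allo (median log2 fold change 0.09), and Cnp, a myelin enzyme, passed the unadjusted threshold (0.09 ± 0.04, limma unadjusted p = 0.0347, adjusted p = 0.806). Their sum was 1784, 1741, 1610 and 1697 CPM in AM-Veh 1-1, 1-2, 2-1 and 2-2 and 1921, 1940, 1726 and 1698 CPM in AM-Allo, higher under each number. The 4 proliferation markers also had higher means (median 0.10), and 0 of 4 passed the unadjusted threshold. The part of these cell types in the result was not tested.

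**Figure D2:**
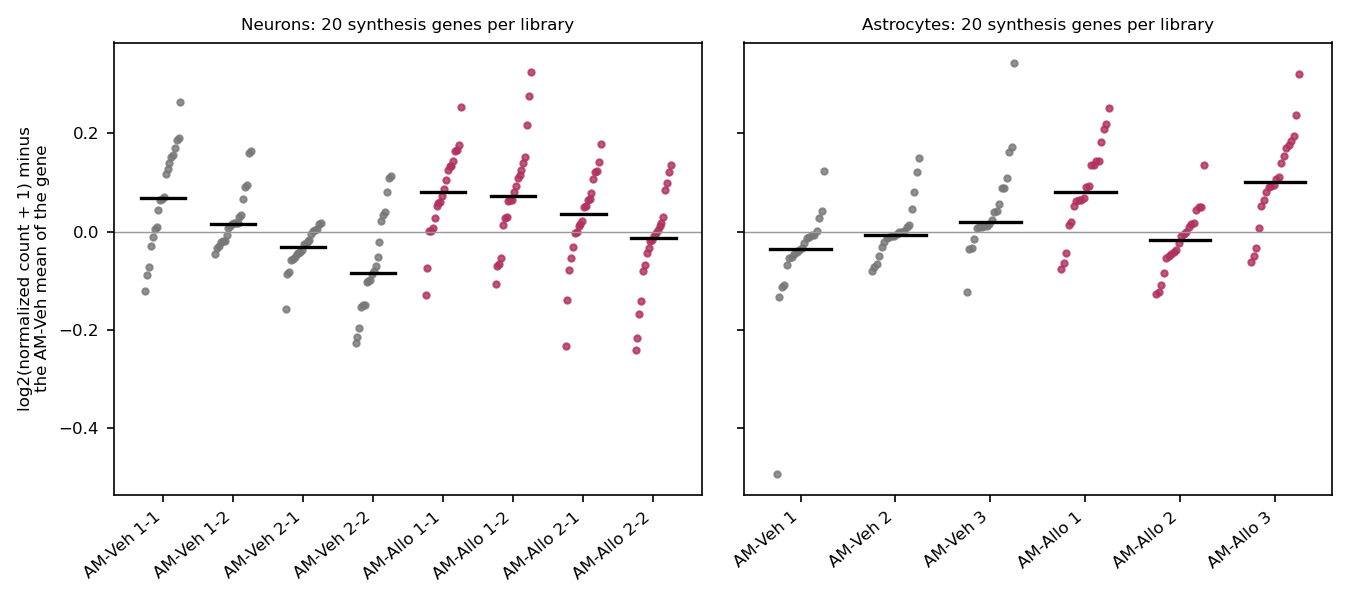
For each library, the 20 synthesis genes (points, ordered by value) as log2(normalized count + 1) minus the gene's mean in AM-Veh, with the median over the 20 genes (black line), in neurons (left) and astrocytes (right). In neurons the AM-Veh medians are 0.07 and 0.02 in libraries numbered 1 and −0.03 and −0.08 in those numbered 2, and in astrocytes AM-Allo 2 (−0.02) lies among the AM-Veh libraries while AM-Allo 1 (0.08) and 3 (0.10) lie above them.

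The plot of synthesis genes by library shows how much of the spread in neurons follows the library number. The median over the 20 genes, against the AM-Veh mean, was 0.07, 0.02, −0.03 and −0.08 in AM-Veh libraries 1-1, 1-2, 2-1 and 2-2 and 0.08, 0.07, 0.04 and −0.01 in AM-Allo. Under each number the AM-Allo library was the higher one, and under each treatment the libraries numbered 1 were above those numbered 2. Over all genes tested the same medians stayed between −0.00015 and 0.0031.

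In astrocytes, the same lean appeared, with fewer genes at the unadjusted threshold. Allo cultures had the higher mean in 18 of the 20 synthesis genes, which tended to move together, and in 7791 of all 15380 genes. The median log2 fold change of the synthesis genes was 0.06, against 0.0014 over all genes. It ran from 0.03 without AM-Allo 3 to 0.10 without AM-Allo 2. Of the control genes, 4 of 6 were higher (median 0.08), and both efflux genes were lower (median −0.11). At an unadjusted p under 0.05, 3 of 28 members were higher (3.72% of all genes) and 0 were lower (3.29%). No member passed adjustment, and 1 gene of all tested did (0.0065%). The AM-Allo libraries lay wholly above AM-Veh for 2 members, Sc5d and Srebf2 (6.42% of all genes), and wholly below for 0 (6.07%), and with 3 against 3 libraries the exact permutation test cannot go under 0.1.

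The genes past the unadjusted threshold were Acat2, Cyp51 and Srebf2. Acat2 had 608, 663 and 612 normalized counts in AM-Veh 1, 2 and 3 and 725, 650 and 740 in AM-Allo (log2 fold change 0.17 ± 0.07, SE, limma unadjusted p = 0.0280, adjusted p = 0.679). Cyp51, the lanosterol demethylase, had 2773, 2738 and 2879 in AM-Veh and 3070, 2830 and 3158 in AM-Allo (0.11 ± 0.04, unadjusted p = 0.0303, adjusted p = 0.684). In both genes it was AM-Allo 2 that fell inside the AM-Veh range.

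Srebf2 had 3648, 3775 and 3828 normalized counts in AM-Veh and 4185, 4007 and 3881 in AM-Allo, a log2 fold change of 0.10 ± 0.04 (SE, limma unadjusted p = 0.0219, adjusted p = 0.654). Sc5d had 2179, 2195 and 2210 against 2339, 2219 and 2370, again with AM-Allo 2 the lowest of its group (0.07 ± 0.04, unadjusted p = 0.0901, adjusted p = 0.770). Abca1 had 4154, 4076 and 4321 against 3856, 3843 and 4140 (−0.08 ± 0.04, unadjusted p = 0.0562, adjusted p = 0.723). Srebf1 had 5576, 5753 and 6016 against 5759, 6071 and 6304, which overlap (0.06 ± 0.04), and Acly had 5649, 5640 and 5743 against 5951, 5586.5 and 6252 (0.06 ± 0.04). Srebf2 is the member that was higher at an unadjusted p under 0.05 in both cell types, by 0.08 and 0.10 (limma adjusted p = 0.806 and 0.654). How many of all genes were higher in both was not counted, so this does not set Srebf2 apart. Whether the changes in the cell types differ was not tested, because the tables were normalized separately.

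Single libraries weighed heavily here too. Without AM-Allo 2, 8 of 28 members passed the unadjusted threshold (7.06% of all genes did), Acly, Hmgcs1, Fdps, Sc5d and Insig1 being added, with log2 fold changes of 0.10 to 0.22 and limma adjusted p-values of 0.437 to 0.665. Without AM-Veh 1 none passed, and without AM-Allo 1 only 1 did. Srebf2 lasted in 4 of 6 such fits (lost without AM-Veh 1 or AM-Allo 1), and Acat2 and Cyp51 in 2. AM-Allo 2 lay inside the range of the other libraries in astrocyte markers (9822 CPM) and neuron markers (1067 CPM). It was the lowest of the 6 in microglia markers (39.0 CPM, the others 39.6 to 51.6), in oligodendrocyte-lineage markers (214.1 CPM, the others 214.6 to 225.8) and in the share of mitochondrial transcripts (3.35%, the others 3.52% to 3.93%). Over both groups, all 7 astrocyte markers had a lower mean in AM-Allo (median −0.03), of which Slc1a2 (−0.36 ± 0.14, limma unadjusted p = 0.0211, adjusted p = 0.654) and S100b (−0.09 ± 0.04, unadjusted p = 0.0371, adjusted p = 0.691) passed the unadjusted threshold. The shift was not confined to astrocyte markers. All 4 neuron markers tested had a lower mean, and Map2 passed the unadjusted threshold (−0.13 ± 0.05, limma unadjusted p = 0.0299, adjusted p = 0.684). Of 6 microglia markers 4 were lower and 2 higher, and Cx3cr1 passed (−0.58 ± 0.20, limma unadjusted p = 0.0117, adjusted p = 0.552). The part of these cells in the members' values was not tested.

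A list of 14 further lipid genes under SREBP control, mostly fatty acid genes but with Pcyt2 and Tmem97 among them, had a median log2 fold change of 0.02 with Allo in neurons. At an unadjusted p under 0.05, 3 were higher (3.21% of all genes were) and 0 lower (2.48%). They were Fasn, the fatty acid synthase (0.14 ± 0.05 on the log2 scale, limma unadjusted p = 0.0143), Acaca, the acetyl-CoA carboxylase before it (0.10 ± 0.03, unadjusted p = 0.0151), and Acsl3 (0.08 ± 0.03, unadjusted p = 0.0296), an acyl-CoA synthetase. Of 15 sterol-handling genes tested in neurons, 0 were higher and 2 lower: Mylip, a ubiquitin ligase for lipoprotein receptors (−0.27 ± 0.11, limma unadjusted p = 0.0286), and Clu, the apolipoprotein clusterin (−0.09 ± 0.04, unadjusted p = 0.0476). No gene of either list passed adjustment (adjusted p of these 5 genes 0.712 to 0.871). In astrocytes 0 of the 14 and 0 of 16 passed the unadjusted threshold, with medians of 0.03 and 0.06. Over all astrocyte genes 3.72% were higher and 3.29% lower at it.

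Larger differences lay between the neuron libraries whose numbers start with 2 and those that start with 1, 4 against 4, with treatment in the fit. The labels do not say what the first part of the number stands for. If each first number is a single culture or run, the p-values measure only the spread within it. Fits that leave 1 library out then cannot show whether the differences would recur. At an adjusted p under 0.05, 1 member was higher (9.61% of all genes were) and 7 were lower (7.61%). Without overlap between the sets, 1 was higher (10.2%) and 7 were lower (9.47%). Of the 20 synthesis genes 17 were lower, as were 7776 of all 15314 genes. The median log2 difference was −0.06 over the synthesis genes, −0.09 over the control genes, 0.09 over the efflux genes and −0.0026 over all genes.

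The higher member was Srebf1. It had 11087 and 12007 normalized counts in the AM-Veh libraries numbered 1, 10931 and 11813 in AM-Allo, and 16035, 18537, 17530 and 19990 in the libraries numbered 2 in the same order of treatments. The sets were far apart, 11459 ± 530 against 18023 ± 1666 (SD, n = 4 each), a log2 difference of 0.65 ± 0.05 (SE, limma adjusted p = 3.4e-07). Treatment moved it far less than the number did.

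**Figure D3:**
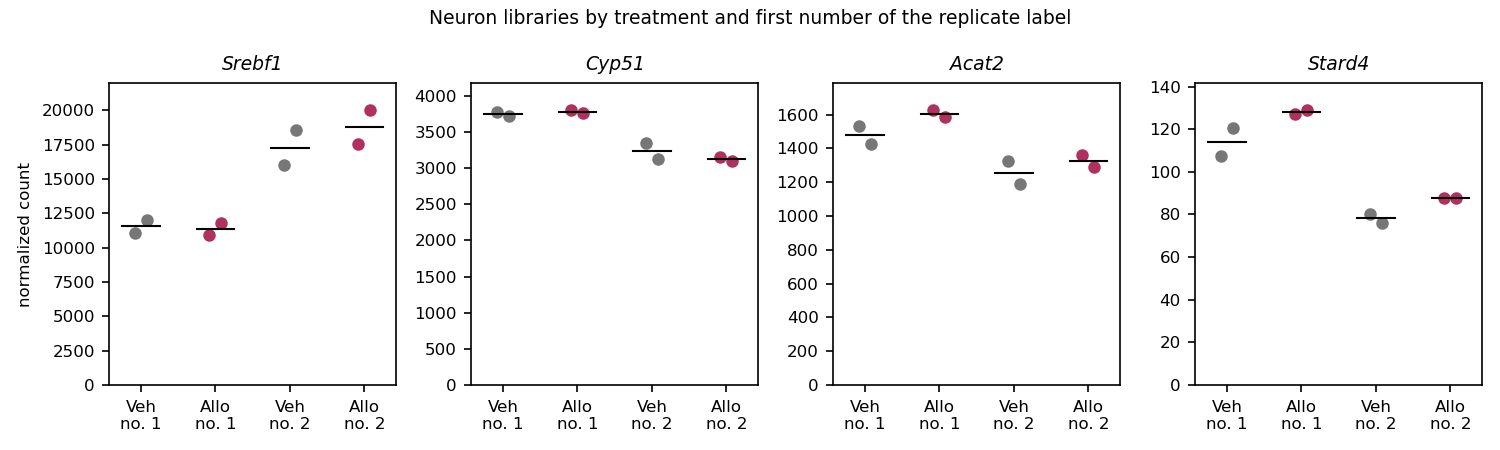
Normalized counts (vertical axes, from 0) of Srebf1, Cyp51, Acat2 and Stard4 in each of the 8 neuron libraries (points), by treatment and first number of the label, with the mean of each pair (line). Srebf1 is higher in all 4 libraries numbered 2, at 16035 to 19990 against 10931 to 12007, and the other genes are lower there.

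The lower members were Acat2, Mvd, Lss, Cyp51, Sc5d, Insig1 and Stard4. Cyp51 was at 3763 ± 34.4 normalized counts in libraries numbered 1 and 3180 ± 109 in those numbered 2 (log2 difference −0.24 ± 0.03, SE, limma adjusted p = 2.78e-05). Acat2 was at 1542 ± 85.6 and 1290 ± 74.4 (−0.26 ± 0.04, adjusted p = 4.69e-04), and Stard4 at 121 ± 9.72 and 82.9 ± 5.77 (−0.54 ± 0.11, adjusted p = 0.00232). These 3 genes did not overlap between the numbers.

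Lss, the lanosterol synthase, differed by −0.27 ± 0.06 on the log2 scale (SE, limma adjusted p = 0.00411), Mvd, the mevalonate diphosphate decarboxylase, by −0.23 ± 0.05 (adjusted p = 0.0043), Sc5d by −0.18 ± 0.04 (adjusted p = 0.00355) and Insig1 by −0.15 ± 0.04 (adjusted p = 0.0118). All 8 calls lasted when any 1 of the 8 libraries was left out. Lss, Mvd and Sc5d did not overlap between the numbers, but Insig1 did, at 977 to 1092 normalized counts against 891 to 996. Acly did not overlap, at 7090 ± 57.6 against 6941 ± 86.9, with a limma adjusted p of 0.397. Srebf2 (−0.06 ± 0.03, adjusted p = 0.193) and Scap (0.00 ± 0.02) did not pass, nor did the efflux genes Abca1 (0.08 ± 0.04, adjusted p = 0.217) and Abcg1 (0.10 ± 0.05, adjusted p = 0.232).

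Other sterol and lipid genes differed between the numbers as well. In the list of 14 lipid genes, mostly fatty acid genes, 3 were higher (9.61% of all genes were) and 3 lower (7.61%) at an adjusted p under 0.05. Among them were Me1, the malic enzyme that supplies NADPH (log2 difference 0.28), Fads1, a desaturase (0.20), and Elovl5, an elongase (−0.22). Among 15 sterol-handling genes 6 were higher and 0 lower, beside the same shares of all genes. They included Lipa, the lysosomal acid lipase (0.59 ± 0.05, limma adjusted p = 9.11e-07), and Scarb1, a lipoprotein receptor (0.28 ± 0.04, adjusted p = 2.44e-04).

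Markers of cell types moved with the same number. The 7 astrocyte markers summed to 8875 to 9445 CPM in libraries numbered 1 and 10497 to 11445 CPM in those numbered 2, and Gfap, which carries much of the sum, rose from 73158 ± 4372 to 112247 ± 5547 normalized counts (limma adjusted p = 3.25e-08). Of the 7, 4 were higher and 2 lower at an adjusted p under 0.05, the lower ones being Aldoc (−0.21 ± 0.03 on the log2 scale, adjusted p = 3.49e-05) and Gja1 (−0.11 ± 0.03, adjusted p = 0.0433), and Slc1a3 was at 0.02 ± 0.03. Proliferation markers (4 genes) fell from a range of 128 to 145 CPM to one of 93.6 to 104 CPM, and mesenchymal markers (5 genes, of which 4 passed adjustment) were at 29.3 to 100.03 CPM against 10.1 to 15.7 CPM. Of the 7 oligodendrocyte-lineage markers, 4 were lower and 1 higher, while over all genes 7.61% were lower and 9.61% higher at an adjusted p under 0.05. Mbp, a myelin protein, was at 1956 ± 174 against 1004 ± 90.3 normalized counts, and Sox10, a factor of the lineage, went the other way, at 836 ± 70.7 against 1214 ± 154 (limma adjusted p = 1.97e-05). The part of these cell types in the members' differences was not tested.

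Over the libraries the synthesis genes tended to move together, with exceptions in both cell types. After the group means were removed, the mean pairwise correlation among the 20 genes was 0.21 in neurons (8 libraries, 126 of 190 pairs positive) and 0.31 in astrocytes (6 libraries, 135 of 190), and close to 0 over all genes. These are descriptions, since the points share library and depth and, in neurons, the first number. In neurons, the correlation with the mean of the other synthesis genes was 0.95 for Acat2, 0.93 for Insig1, 0.91 for Cyp51 and 0.90 for Srebf2, and −0.96 for Srebf1, −0.76 for Abca1 and −0.72 for Abcg1. In astrocytes it was 0.98 for Hmgcs1 and Insig1 and 0.29 for Srebf2, 0.40 for Srebf1, 0.64 for Abca1 and 0.24 for Abcg1. Stard4 was at 0.88 in neurons and −0.06 in astrocytes. Insig1 thus followed the synthesis genes in both cell types, while Srebf1 and the efflux genes ran against them in the neuron libraries and not in those of astrocytes. The first number was left in the neuron values. Libraries numbered 2 were higher in Srebf1 (0.65) and the efflux genes (median 0.09) and lower in the synthesis genes (median −0.06). The neuron correlations hold that difference, which astrocyte labels do not have, so the contrast between cell types cannot be told apart from it. Pmvk, the phosphomevalonate kinase, ran against the rest in both (−0.50 and −0.82), as did Ggps1, the geranylgeranyl diphosphate synthase (−0.22 and −0.58). Tm7sf2, a sterol reductase (−0.71), and Msmo1 (−0.23) did so in neurons, and Ebp in astrocytes (−0.96).

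Levels differed between vehicle cultures of neurons and of astrocytes by up to 4.35 times. As shares of each table's total, 15 members were higher in the 4 neuron libraries without overlap (44.5% of 14386 genes with a mean of at least 10 in both tables), 10 were higher in the 3 astrocyte libraries (34.6%), and Lss, Tm7sf2 and Stard4 overlapped. The median gene was itself 0.10 higher in neurons on the log2 scale, and subtracting this turned the direction of no member. The tables were normalized separately, so no test was run. The cultures also differed in medium and in hours of AM medium and treatment, which cannot be told apart from cell type here.

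Abca1 was at 763 ± 56.9 CPM in neuron cultures and 175 ± 5.54 CPM in astrocyte cultures (SD, n = 4 and 3), the largest ratio of the members. Mvd was 4.05 times higher in neuron cultures (30.8 ± 4.07 against 7.62 ± 0.779 CPM), Abcg1 3.73 times, Hsd17b7, a sterol ketoreductase, 3.1 times, Srebf1 2.68 times and Acat2 2.35 times. In the other direction, Insig1 was 1.74 times higher in astrocyte cultures (74.5 ± 2.46 against 42.7 ± 3.04 CPM), Msmo1, the sterol methyl oxidase, 1.58 times, Ebp 1.46 times and Sc5d 1.39 times. Of the 20 synthesis genes, 11 were thus higher in neuron cultures and 7 in astrocyte cultures. These are levels of mixed cultures and not of one cell type. The summed astrocyte markers overlapped between the cultures, but single markers differed in both directions: in AM-Veh, Slc1a2 was at 113 CPM in neuron cultures and 7.56 CPM in astrocyte cultures, Gja1 at 833 and 344, Gfap at 4247 and 5694, and Aldoc at 324 and 598.

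**Figure D4:**
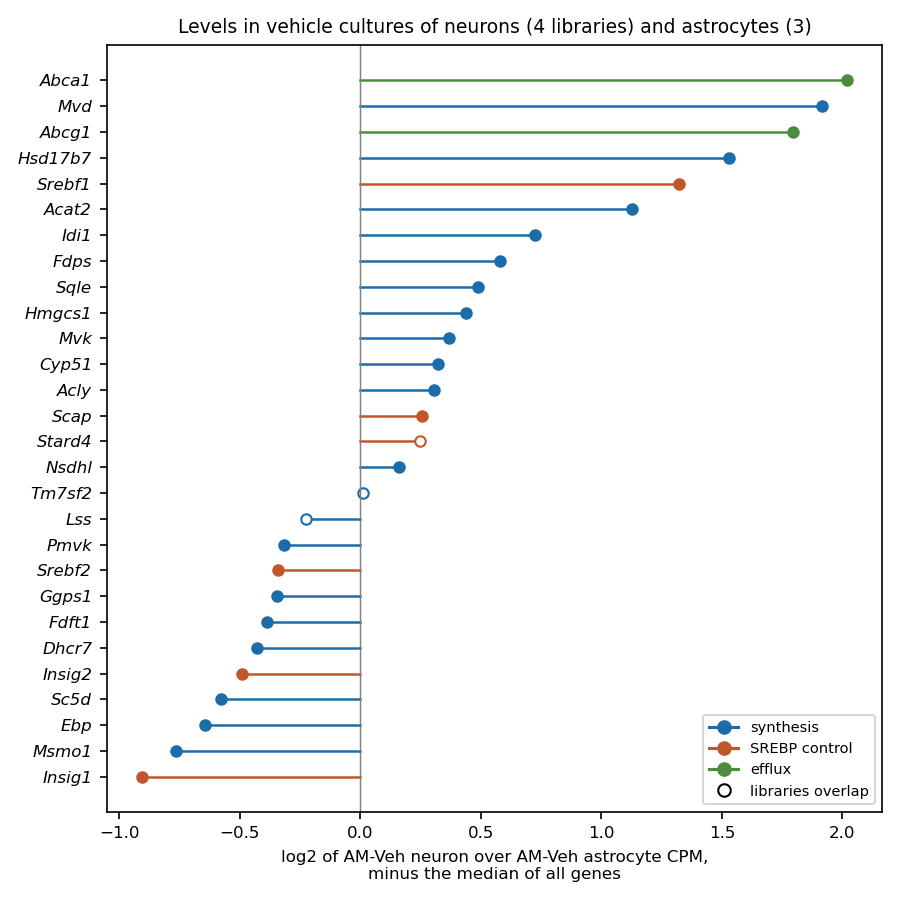
Log2 ratio of the mean level in AM-Veh neuron cultures to that in AM-Veh astrocyte cultures, in CPM of each table, minus the median over 14386 genes, for the 28 members; open circles mark the 3 genes whose libraries overlap. Abca1 stands furthest to the neuron side, at 2.02, and Insig1 furthest to the astrocyte side, at −0.91.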

How the data were processed

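RNA-seq values of 8 neuron and 6 astrocyte libraries were grouped as their sample labels give cell type, treatment and replicate number. The authors quantified poly(A)-selected, stranded, paired-end libraries with Salmon (0.14, per the submitters' processing notes) against Ensembl release 95, summed transcripts to genes with tximport and normalized with DESeq2 (1.18.1). The deposited tables hold this normalized signal per gene symbol, 1 table per cell type, and variance-stabilized values on a log2-like scale, which the authors also made with DESeq2 and which served as an alternative. In neurons these stabilized values hold no difference between the first parts of the library numbers. The study's methods describe no step that takes this difference out. All columns were used. Whole reads could not be recovered: 59.6% to 92.0% of low values came out whole, within 0.15 of a read. No count model was therefore run.

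Values were analysed as log2(normalized count + 1), so fold changes of low genes are understated. Genes with a mean of at least 10 were fitted with limma 3.58.1 in R 4.3.3 (lmFit, eBayes with trend), per cell type, two-sided, with Benjamini-Hochberg adjustment over all genes tested. The code was tested on simulated data. AM-Allo was compared with AM-Veh, and neuron libraries numbered 2 with those numbered 1 (treatment as covariate). For single genes, mean log2 values were also compared by an exact permutation test (two-sided). Promoter windows are RefSeq's (GRCr8) and were scanned on both strands.

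Neuron numbers (1-1, 1-2, 2-1 and 2-2) were checked for pairing: with group means removed, same-numbered AM-Veh and AM-Allo libraries correlated over genes at 0.296, 0.229, 0.265 and 0.273, so they were treated as pairs in a blocked alternative. Libraries that share only the first part correlated nearly as much (0.185 to 0.236), and AM-Veh 1-2 more with AM-Allo 1-1 (0.236) than with AM-Allo 1-2, so a block by the first part was fitted too. Members, lists and the naming rule were chosen with earlier results of these data known. All 28 members are described, with library values for those past an unadjusted p of 0.05 or without overlap, and for 3 of high level; of the wider lists, genes past the threshold are named (at most 5 a comparison, by smallest p). Alternatives were pseudocounts of 0.5 and 5, no minimum or one of 50, other scalings, limma without trend or robust, variance-stabilized values, blocks, and leaving out each library.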

Additional observations from a re-analysis of the deposited data

Results flagged for a closer look

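Within 56 groups of 4 neuron libraries (28 genes, 2 treatments), 3 held a library that stood apart by more than Dixon's 95% critical value of 0.829 for the gap over the range; chance flags about 1 group in 20. Acly in AM-Veh 2-2 was at 6898.5 normalized counts, below the other AM-Veh libraries, which lay between 7033 and 7045. Dhcr7 in AM-Allo 2-1 was at 1226.2, above the others of its group at 1148 to 1155, and without that library its unadjusted p no longer passed 0.05. Scap in AM-Allo 1-1 was at 4033.9, above 3924 to 3940 in the other AM-Allo libraries.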

How the results depend on the processing

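No member passed adjustment for Allo in either cell type, except that in neurons 1 did with the variance-stabilized values (Insig1) and 1 within libraries numbered 2 (Hmgcs1, 2 against 2 libraries). The variance-stabilized neuron values lack the difference between first numbers but were fitted without a term for it, so their p-values are too small. In limma with a block by first number, the adjusted p of Insig1 was 0.129. No member changed direction past the threshold under any setting. The neuron members at an unadjusted p under 0.05 (6) numbered 1 in limma without trend, and 0 to 6 with 1 library left out. In astrocytes the 3 members became 0 without trend, 5 with a replicate block by whole number, and 0 to 8 with 1 library left out. Astrocyte libraries of 1 number share only the number (correlations 0.0241, −0.00698 and 0.0117). Over all genes, the 4 neuron calls became 158 with variance-stabilized values, 0 without trend, 93 with a replicate block by whole number, 104 with one by first number, 34 and 267 within numbers 1 and 2, and 0 to 4 with 1 library left out. The 872 neuron genes at an unadjusted p under 0.05 became 2204 with variance-stabilized values, 1634 and 1684 with the blocks and 1918 within number 2. The single astrocyte call became 0 at a minimum mean of 50, 0 without trend, 4 in the robust fit, 17 with the block and 1 to 72 with 1 library left out. Between the neuron numbers, 2636 genes fell to 1722 without trend, where Lss lost its call (adjusted p = 0.0748). The median of the control genes moved to 0.107 for Allo within number 2, to 0.0403 in astrocytes with variance-stabilized values (with 1 library left out 0.0231 to 0.104, and 0.0506 where this was AM-Allo 3), and between the numbers to −0.0613 without AM-Allo 1-2 and −0.0628 without AM-Allo 2-1. The efflux median of neurons (−0.04) was 0.00 within number 1, where that of the synthesis genes (0.0467) was 0.0232. With 1 library left out, the synthesis median ran from 0.0151 to 0.0711 in neurons and from 0.0328 to 0.103 in astrocytes, and the efflux median from −0.0840 to −0.00293 and from −0.168 to −0.0483. The cause of these shifts was not tested. The deposited variance-stabilized neuron values hold no difference between the first numbers (0 in Srebf1, against 0.65 in log2 counts), so this setting was not run for that comparison. With 3 or 4 libraries a group, changes of a few percent lie at the limit of what the spread between libraries can show.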
